A study of Mus musculus with 2 samples.

Results

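The genes of sphingolipid and ceramide metabolism were compared between livers that lack Lpcat3 in hepatocytes (Lpcat3fl/fl Albumin-Cre, called L-Lpcat3 KO) and livers of Lpcat3fl/fl mice without Cre. All mice were 16-week-old males that had eaten a western diet since they were 7 weeks old, for 9 weeks in all, with a fast of 6 hr before harvest, and both genotypes carried the floxed allele on a C57BL/6 background. Albumin-Cre acts in hepatocytes, so the other cells of the liver keep Lpcat3, which encodes an acyltransferase that remodels phospholipids. Each genotype was represented by 1 pool of 5 livers on 1 Affymetrix mouse expression array. A pool is a single sample, so no difference between genotypes has a replicate check and no p-value is given. The 35 members were chosen by their function, and every probe set that the platform annotation gives to 1 of these symbols was taken. Of the 35 genes, 33 had such a probe set, out of 18194 genes on the array. Ormdl2 and Ormdl3 had only probe sets annotated to several genes and were not analysed here.

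Sphingolipids are built on a long-chain base made from serine and palmitoyl-CoA, which is acylated and desaturated in the endoplasmic reticulum to ceramide. Ceramide is then turned into sphingomyelin, glycosphingolipids or ceramide 1-phosphate, and it is set free again by sphingomyelinases and glycosidases. Ceramidases split it into a fatty acid and sphingosine, and sphingosine 1-phosphate is the form that leaves the pathway through a lyase. In fatty liver, ceramides are known as lipids linked to insulin resistance, and sphingomyelin is a surface lipid of lipoproteins together with phosphatidylcholine.

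The deposited signal is linear MAS5 intensity. Signals under 86.6, the median of all probe sets on both arrays, were raised to that floor, and of a gene's probe sets the one with the highest average log2 signal after this step stood for it. A gene counted as measured when this probe set was at or above the floor on either array. A ratio with 1 side under the floor gives only a bound, written as at least N-fold. Signals of different probe sets are not levels that can be ranked between genes, so only the ratio of the 2 arrays is compared. How far probe sets of the same gene differ in log2 ratio (pooled SD 0.28 over 4478 genes) is used as the measure of technical spread. It was 0.24 over the 12 members with more than 1 probe set above the floor on both arrays, and it holds no spread between mice.

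Lpcat3 itself had a signal of 2198 in L-Lpcat3 KO liver and 5173 in Lpcat3fl/fl liver, or 42.5% of control, on its single probe set. The position of this probe set relative to the deleted exon was not known, which limits what it says about the genotype. The hepatocyte markers Alb, Ttr and Apoa1 were present at high signal on both arrays, and all 11 measured hepatocyte markers lay within 1.5-fold (median log2 ratio -0.15, summed signal 262004 in L-Lpcat3 KO and 283427 in Lpcat3fl/fl liver). Other cell types were not even between the pools. All 15 markers of Kupffer cells and other macrophages were higher in L-Lpcat3 KO liver, 13 of them at least 1.5-fold (median 0.89, summed signal 40074 against 19008), and none of the 15 was under the floor. At least 1.5-fold higher were also 5 of 5 measured B cell and plasma cell markers, 4 of 7 stellate cell, 2 of 6 liver endothelial, 1 of 3 neutrophil, 1 of 2 T and NK cell and 2 of 2 adipocyte markers, and none of 2 cholangiocyte markers. Of these markers Ms4a1, Cd79a, Cd79b, Adipoq, Retn, S100a8, S100a9, Nkg7 and Cd3e were under the floor in Lpcat3fl/fl liver, so they were measured through the L-Lpcat3 KO array alone and had to come out higher. In bulk RNA, more cells of a type and more RNA per cell cannot be told apart. The part of these shifts in the ratios given next was not tested.

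None of the 27 members above the floor on both arrays differed by 2-fold, or by 1.5-fold, between the genotypes. The share past these folds among the 10957 genes above the floor on both arrays was not counted. This 0 therefore has no background beside it and sets the members apart from no other genes. Of 30 measured members, 0 had a ratio or bound past 2-fold upward in L-Lpcat3 KO liver and 0 past 2-fold downward, where 2.74% and 0.722% of all 12321 measured genes did. At 1.5-fold, 2 members were higher, Cers4 and Sphk1, and none was lower, where 9.15% of all measured genes were higher and 3.86% lower. Both were measured only through the L-Lpcat3 KO array, so they had to come out higher there, and as their ratios are bounds a difference of 2-fold or more is possible for them and for Cerk. The other 5 of the 35 members have no ratio. The median log2 ratio of the 30 members was 0.12, against 0.01 for all measured genes. In absolute size the median ratio was 0.22 for the members and 0.21 for all measured genes. The ratio was smaller than the technical spread in 17 of the 30 members, and in 62.3% of all measured genes. Above 0 lay 20 of the 30 members, where 51.3% of all measured genes did. Among the 20, Cers4, Sphk1 and Cerk were measured through the L-Lpcat3 KO array alone and had to lie above 0. Over the 27 members above the floor on both arrays the median was 0.08, against -0.003 for all 10957 genes above it. Centring the arrays on their medians made the split of the members 15 and 15 and left their median 0.12 above that of all genes. It lowered the members above the floor on both arrays alike. Cers4, Sphk1 and Cerk were lowered by less and stayed above 0.

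**Figure D1:**
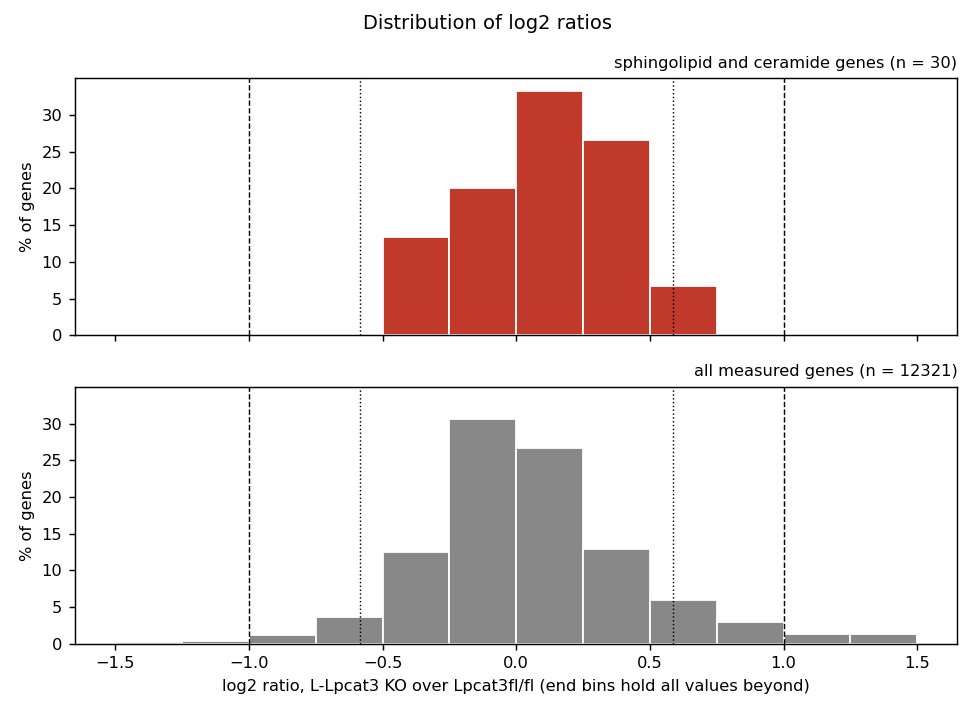
Share of genes (%) by log2 ratio of L-Lpcat3 KO over Lpcat3fl/fl in bins of 0.25, for the 30 measured members (top) and all 12321 measured genes (bottom); dotted lines mark 1.5-fold and dashed lines 2-fold. The members lie between -0.43 and 0.73, the upper end being the bound of Cers4. Of all measured genes 2.74% lie past 2-fold upward and 0.722% downward. The range of 30 genes is not comparable with that of 12321.

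The first step of the pathway, serine palmitoyltransferase, showed no common direction. Sptlc1, the subunit shared by all forms of the enzyme, had a signal of 755 in L-Lpcat3 KO and 864 in Lpcat3fl/fl liver, a log2 ratio of -0.19, and its other 2 measured probe sets were at 0.05 and 0.11. Sptlc2, a catalytic subunit, had 601 against 449, a ratio of 0.42, but its second measured probe set was at -0.01. Sptlc3, the alternative catalytic subunit, stayed under the floor on both arrays with its 2 probe sets, at signals of 11.4 and 14.7 in L-Lpcat3 KO and 65.7 and 20.7 in Lpcat3fl/fl liver, and no ratio is given. The genes that were measured and the one that was not differ in the bases in front of their start sites, shown here as the 250 bases upstream of the RefSeq start (GRCm38.p6), with each CG dinucleotide in capitals. Cers4, 1 of the 2 members with a bound past 1.5-fold, is added for comparison.
Sptlc1, chr13:53377362-53377611, minus strand: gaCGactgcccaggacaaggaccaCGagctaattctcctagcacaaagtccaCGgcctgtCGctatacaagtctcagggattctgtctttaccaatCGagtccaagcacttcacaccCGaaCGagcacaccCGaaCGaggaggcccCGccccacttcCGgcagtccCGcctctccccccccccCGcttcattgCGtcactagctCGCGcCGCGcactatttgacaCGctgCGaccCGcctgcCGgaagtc
Sptlc2, chr12:87388356-87388605, minus strand: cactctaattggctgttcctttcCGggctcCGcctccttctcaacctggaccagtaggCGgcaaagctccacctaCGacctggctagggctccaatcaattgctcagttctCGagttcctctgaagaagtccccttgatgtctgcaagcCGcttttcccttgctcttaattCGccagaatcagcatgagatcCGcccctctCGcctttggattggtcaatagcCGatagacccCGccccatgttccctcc
Sptlc3, chr2:139493663-139493912, plus strand: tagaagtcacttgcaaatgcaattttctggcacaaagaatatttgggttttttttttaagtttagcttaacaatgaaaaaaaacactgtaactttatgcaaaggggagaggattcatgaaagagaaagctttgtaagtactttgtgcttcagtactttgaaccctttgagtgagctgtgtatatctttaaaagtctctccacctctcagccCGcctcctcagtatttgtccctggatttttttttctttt
Cers4, chr8:4493155-4493404, plus strand: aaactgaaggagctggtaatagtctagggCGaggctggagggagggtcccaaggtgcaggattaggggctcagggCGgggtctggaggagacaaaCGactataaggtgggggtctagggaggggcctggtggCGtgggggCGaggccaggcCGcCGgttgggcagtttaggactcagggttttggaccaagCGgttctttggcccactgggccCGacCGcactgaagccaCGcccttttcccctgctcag
These windows held 22 CG dinucleotides for Sptlc1, 11 for Sptlc2 and 11 for Cers4, and 1 for Sptlc3, whose GC content was 35.6%. The median was 6 over the 32851 promoters in the RefSeq table and 16 over the 47 promoters of the 32 members that were matched in it. CG-rich windows did not mark measured members as such: Degs2 (18) and Sgpp2 (24) were under the floor on both arrays. Nor did CG-poor windows mark members without signal: Asah2 (2) and Arsa (4) were above the floor on both. The GC box GGGCGG, searched on both strands, was present in 53.2% of the members' promoters and in 32.7% of all promoters. The E-box CACGTG, which reads the same on both strands, was in 19.1% and 6.02% of them, among others in front of Cers2, Cers6 and Degs1. The letters TATAAA on either strand were in 2.13% and 12.4%, with 1 member, Sphk1. Both GGGCGG and CACGTG contain CG, and the members' windows held more CG, so their shares are not independent of CG content. Some members, such as Sgms2 and Sphk1, count with several promoters, and windows of Sphk1 partly overlap. These matches describe the sequence and not binding of a factor.

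Along the rest of de novo synthesis, the measured enzymes other than Cers4 stayed within 1.5-fold. Kdsr, the reductase after serine palmitoyltransferase, had 1327 against 1077 (0.30), but its other 2 probe sets were at -0.01 and -0.34, so its direction depended on the probe set. Cers2, the ceramide synthase that adds very long acyl chains and the main form of liver, had a signal of 6006 in L-Lpcat3 KO and 7264 in Lpcat3fl/fl liver, a ratio of -0.27 on its single probe set. The synthases that use palmitoyl-CoA, Cers6 and Cers5, were at 0.19 (1115 against 975) and 0.003 (345 against 345). The ratios of Cers2, Cers6 and Cers5 were each smaller in size than the technical spread. That spread describes 1 ratio and was not used to judge a difference between genes. Degs1, the desaturase that makes ceramide from dihydroceramide, had 3838 against 3290, and both its probe sets were above 0, at 0.22 and 0.28. Degs2, which also hydroxylates the long-chain base, was under the floor on both arrays (84.4 against 21.0). Cers4, a synthase of long-chain ceramides, had 144 in L-Lpcat3 KO and 51.3 in Lpcat3fl/fl liver and was at least 1.66-fold higher. Its second measured probe set, 121 against 77.2, gave a bound of at least 0.48 on the log2 scale, and the third was under the floor on both arrays. The call for Cers4 therefore rested on 1 probe set near background. Ormdl1, an inhibitor of serine palmitoyltransferase that senses ceramide, had 2079 against 2282, a ratio of -0.13.

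**Figure D2:**
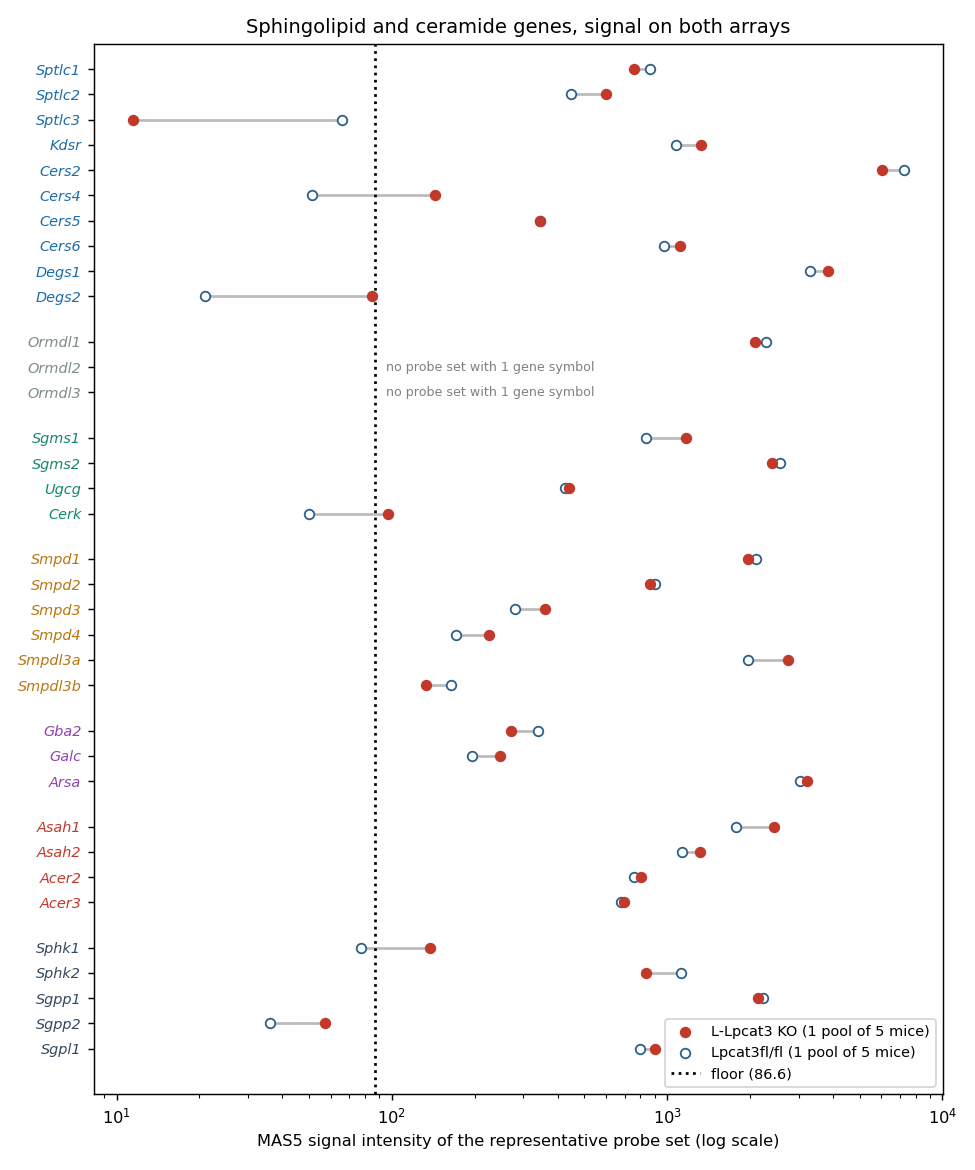
MAS5 signal intensity (log axis) of the representative probe set of each member in the L-Lpcat3 KO pool (red) and the Lpcat3fl/fl pool (open blue), grouped by step of the pathway; the dotted line is the floor of 86.6. For most members the points lie close together, and wide gaps are found next to the floor, as for Sptlc3, Degs2, Cers4 and Sphk1.

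Among the enzymes that turn ceramide into other lipids, 3 were above the floor on both arrays. The signal of Sgms1, the sphingomyelin synthase of the Golgi, was 1169 in L-Lpcat3 KO and 838 in Lpcat3fl/fl liver, a log2 ratio of 0.48, and the other probe sets were at 0.29, 0.24 and at least 0.42. The 3 probe sets of this gene above the floor on both arrays were thus above 0, and none of them reached 1.5-fold. The last one, at 116 against 71.6, was measured through the L-Lpcat3 KO array alone and had to come out higher. Sgms2, the synthase found also at the plasma membrane, had 2410 against 2570 (-0.09). Its second probe set, at 197 against 336, was lower by 1.71-fold (-0.77) and was the one probe set of any member at least 1.5-fold lower; it was picked out after its value was seen. The representative ratio of Sgms1 was larger than the technical spread and that of Sgms2 was smaller. Since the spread describes 1 ratio, the difference between these genes was not judged by it. Ugcg, which commits ceramide to glycosphingolipids, was at 438 against 424 (0.05). Its second measured probe set, at 50.5 against 101, gave a ratio of -0.22 or lower. That probe set was measured through the Lpcat3fl/fl array alone and had to come out lower. Cerk, the ceramide kinase, was at 96.4 against 49.9, at least 1.11-fold higher.

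Among sphingomyelinases, Smpd1, the acid enzyme of lysosomes, had 1966 against 2101 (-0.10), with 0.10 on its second probe set, and the neutral enzyme gene Smpd2 was at -0.06. Smpd3, which encodes another neutral sphingomyelinase, had 360 against 281 (0.36), and its other probe sets were at 0.46 and 0.00. Smpd4 was at 0.40 on a probe set that may detect several transcripts, and at -0.07 or lower on a second one near the floor. Smpdl3a, a relative of Smpd1 that cleaves nucleotides rather than sphingomyelin, had 2757 in L-Lpcat3 KO and 1971 in Lpcat3fl/fl liver (0.48, 1.40-fold). Its paralogue Smpdl3b, a membrane-anchored protein, was at -0.30 (133 against 164). The ratios of these paralogues lay on opposite sides of 0, farther apart than the technical spread.

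The other catabolic genes stayed within 1.5-fold. Asah1, the lysosomal acid ceramidase, had 2447 against 1779 (0.46, 1.38-fold) on its single probe set. Asah2, the neutral ceramidase, had 1318 against 1136 (0.21), the Golgi ceramidase gene Acer2 was at 0.09 and Acer3 at 0.03. Of these 4 ratios, that of Asah1 alone was beyond the technical spread. Galc, which removes galactose from galactosylceramide, had 248 against 195 (0.35), and Arsa, the sulfatide-degrading arylsulfatase, 3224 against 3044 (0.08). Gba2, the glucosylceramidase outside lysosomes, was at -0.32 (272 against 338). The 4 lysosomal enzymes Smpd1, Asah1, Galc and Arsa thus ran from -0.10 to 0.46, and 15 of 15 markers of macrophages, which are rich in lysosomes, were higher in the same array, from 0.49 for Clec4f to 1.86 for Lyz2; their part in these ratios was not tested.

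Of the genes of sphingosine 1-phosphate, a signalling lipid, 3 were above the floor on both arrays. Sphk1, the sphingosine kinase of the cytosol, had 138 in L-Lpcat3 KO and 77.5 in Lpcat3fl/fl liver, at least 1.59-fold higher on a probe set that may hybridise with several transcripts, and its other probe set was under the floor on both arrays. Sphk2, the kinase of nucleus and mitochondria, had 834 against 1123, a ratio of -0.43, and -0.19 on its second probe set. Since Sphk1 was measured through the L-Lpcat3 KO array alone, the signs of the kinase genes are not compared. Sgpp1, a phosphatase that returns sphingosine 1-phosphate to sphingosine, had 2137 against 2237 (-0.07) on a probe set that may detect several transcripts. The probe set of Sgpp1 without this limit had 1087 against 1596 (-0.55), and the third was at 0.02. Sgpp2 was under the floor on both arrays (57.3 against 36.1). Sgpl1, the lyase that ends the pathway, was at 904 against 800 (0.18).

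**Figure D3:**
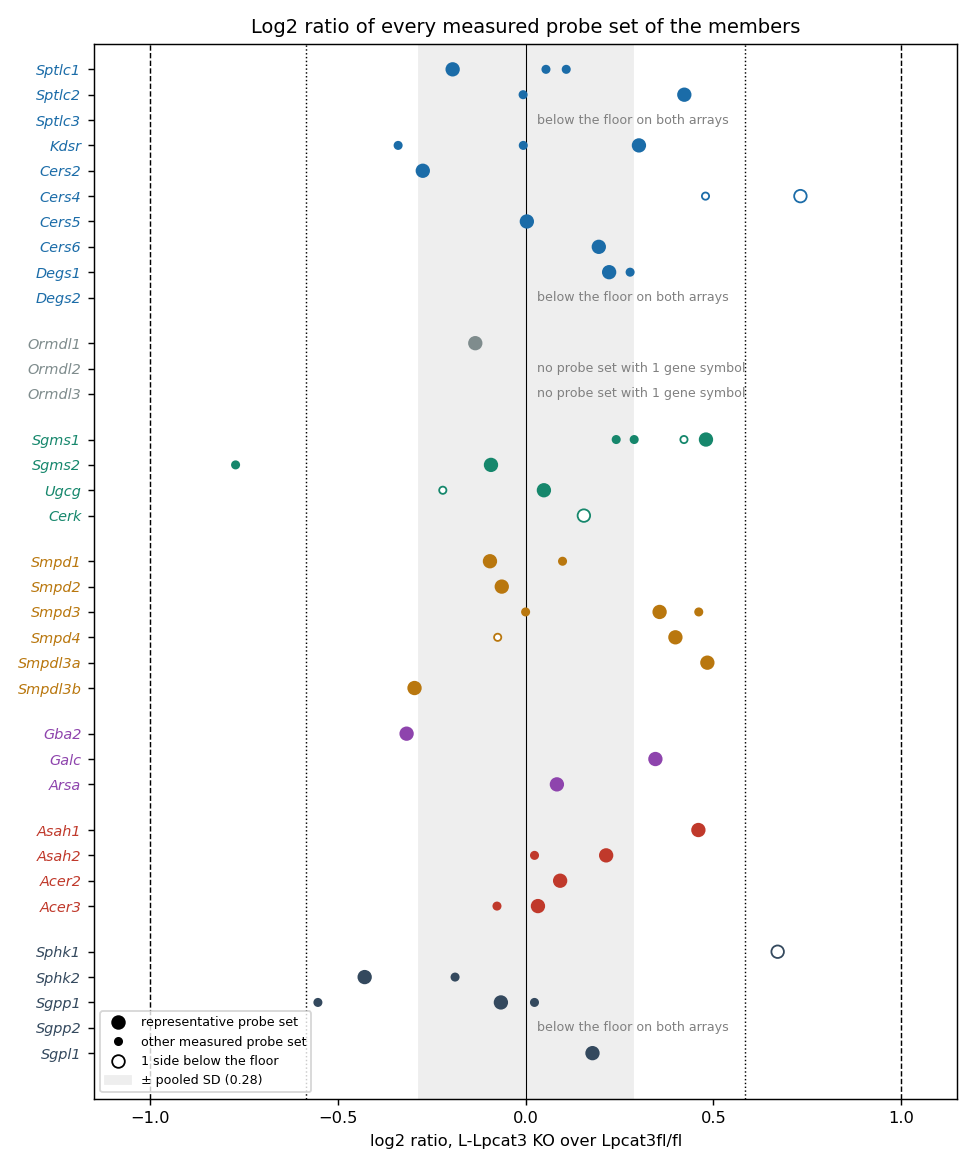
Log2 ratio of L-Lpcat3 KO over Lpcat3fl/fl for every measured probe set of the members; large points are the representative probe sets, small points the others, open points have 1 side under the floor, the grey band is the pooled SD of 0.28, dotted lines mark 1.5-fold and dashed lines 2-fold. Of 51 measured probe sets, 2 open points of Cers4 and Sphk1 lie beyond 1.5-fold on the right and 1 of Sgms2 on the left.

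Probe sets of a member did not always share a sign. Of the 12 members with more than 1 probe set above the floor on both arrays, 3 had all of them above 0 (Sgms1, Degs1 and Asah2), 2 all below 0 (Sgms2 and Sphk2), and 7 had them on both sides. For Smpd3 and Sptlc2 the value below 0 was only -0.0004 and -0.007. The matching share over all genes was not counted, so a split in sign is not shown to be particular to the members. The range within a member reached 0.68, for Sgms2. Of the 72 probe sets of the members, 21 were under the floor on both arrays, and none of the 51 measured ones had a ratio or bound of 2-fold.

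In the wider pathway, a second list of 40 genes had 36 with a probe set and 30 measured. It held further enzymes of synthesis and breakdown, transfer proteins, glycosyltransferases, lysosomal cofactors, transporters and receptors. Of the 30 measured, 5 were at least 1.5-fold higher, 1 of them at least 2-fold, and 1 was at least 1.5-fold lower. Of all measured genes 9.15%, 2.74% and 3.86% were so. The median log2 ratio of the list was 0.04. Gltp, a glycolipid transfer protein of the cytosol, had 599 in L-Lpcat3 KO and 233 in Lpcat3fl/fl liver, 2.57-fold higher on a probe set that may detect several transcripts. Gal3st1, which makes sulfatide from galactosylceramide, had 516 against 262 (0.98). Psap, the precursor of the saposins that present sphingolipids to lysosomal hydrolases, had 8211 against 4620 (0.83), with 0.92 on its second probe set. Other lysosomal genes of the list stayed within 1.5-fold and differed in sign. Hexa was at 0.44 and Naaa at 0.11. Below 0 were Gm2a (-0.32), Glb1 (-0.26), Gla (-0.17, near the floor) and Neu1 (-0.13, with 0.16 on its other probe set). B4galt6, a lactosylceramide synthase, was at 0.77 (404 against 238), with 0.05 as the lowest and 0.87 as the highest of its 3 measured probe sets. The receptor genes went in different directions. S1pr4, a sphingosine 1-phosphate receptor of leukocytes, was at 0.59 (173 against 115), S1pr5, the receptor of NK cells, at -0.89 (116 against 213), and S1pr1, the receptor of endothelium and lymphocytes, at -0.55 (587 against 862). Cert1, which carries ceramide from the endoplasmic reticulum to the Golgi, was at -0.40 (2697 against 3568), with values up to 0.51 among its 3 measured probe sets. S1pr1, Cert1 and the lysosomal genes within 1.5-fold were named after their values were seen.

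**Figure D4:**
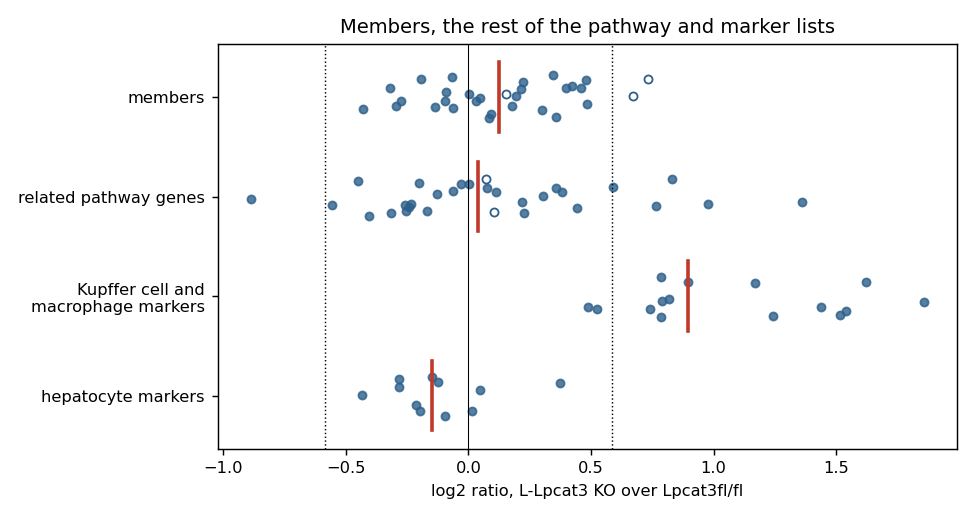
Log2 ratio of L-Lpcat3 KO over Lpcat3fl/fl for each measured gene of 4 lists; open points have 1 side under the floor, each red bar is the median of a list and 1.5-fold is dotted. The members (median 0.12) and the related pathway genes (0.04) are centred near 0, the macrophage markers at 0.89 and the hepatocyte markers at -0.15.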

How the data were processed

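RNA was pooled from 5 livers per genotype and hybridised to 1 array each. Per the submitters' processing notes the authors used MAS5 (no version given), and per the methods GenespringGX. The deposited signal intensity is linear and was scaled to one target, since its mean was 500 on both arrays after 2% of probe sets were trimmed at each end. Such scaling takes the bulk of transcripts to be unchanged. Detection calls were not used here. Of 45101 probe sets, 34958 had 1 gene symbol in the platform annotation and 932 had several and were left out; their symbols were checked by identifier in a RefSeq table (GRCm38.p6), from which no gene coordinates were taken.

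Values were floored at the median, and each gene was given the log2 of its signal in L-Lpcat3 KO over that in Lpcat3fl/fl liver. With 1 array per genotype no test was made, and the number of arrays limits the precision. Given in full were members past 1.5-fold or whose probe sets disagreed past it and, as a rule for naming and not a ranking of levels, the member of highest signal in each step; the others were then added with single values. The members, the gene lists and the thresholds were chosen with earlier results of these data known. Promoter windows came from RefSeq. Alternatives were median centring, quantile normalization, loess, other floors, a pseudocount of 16, the mean of probe sets and leaving out probe sets that may detect several transcripts. The ratio step was tested on simulated data, for changes larger than 2-fold in genes well above the floor. Changes of 1.5-fold were not scored, and none were placed in genes near the floor. Figures were drawn with matplotlib 3.10.9, and values were computed in Python 3.11.15 with pandas 2.3.3, numpy 2.4.6, statsmodels 0.14.6 and scipy 1.17.1.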

Additional observations from a re-analysis of the deposited data

How the results depend on the processing

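No member had a ratio or bound of 2-fold under any alternative but the floor at the 25th percentile (25.5). With that floor 33 members were measured, and 1 was at least 2-fold higher (Degs2) and 1 at least 2-fold lower (Sptlc3), both under the floor of 86.6; at 1.5-fold 5 were higher (Cers4, Degs2, Cerk, Sphk1 and Sgpp2) and 1 lower (Sptlc3). The 2 members at least 1.5-fold higher became 0 with a floor at the 75th percentile and 1, Cers4, without probe sets that may detect several transcripts. With no floor and a pseudocount of 16 the count was again 2, but of Cerk and Sphk1, with Cers4 at 0.55. Chosen after seeing the data, restricting to members above the floor on both arrays left 0, and choosing the probe set on signals before the floor left 1, Sphk1, with Cers4 at 0.48 or more.

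Median centring moved the median log2 ratio of all measured genes by -0.11, and the members' median stood 0.12 above it, against 0.11 as deposited. Genes at least 2-fold higher and lower then numbered 239 and 131, against 337 and 89 as deposited. The members' median stayed between 0.02 and 0.18 over all alternatives. Single members moved by more than the technical spread in 6 of 229 cases: Cerk (0.95 with the floor at the 25th percentile and 0.77 with the pseudocount), Kdsr (-0.02) and Sgms2 (-0.43) with the mean of probe sets, and Smpd4 (-0.07) and Sgpp1 (-0.55) without probe sets that may detect several transcripts. Many of the cases could not move. Another floor left members above both floors unchanged, and the mean of probe sets left members with 1 measured probe set unchanged. Members lost under a setting are not among the cases. The floor at the 75th percentile kept 21 members, and leaving out probe sets that may detect several transcripts kept 27. Members near the floor are limited by background, and 1 pool per genotype leaves the spread between mice unknown.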
